A study of Mus musculus with 8 samples.

Results

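The clustered Hox genes of the mouse were measured in 8 MYCN-driven neuroblastomas. Their members were all genes of the HoxA, HoxB, HoxC and HoxD clusters for which the array holds a probe set of 1 gene. Of 38 clustered Hox genes listed, 33 had such a probe set, among 18194 genes measured in all. Hoxa6, Hoxc11 and Hoxc12 had none, and Hoxb8 and Hoxd4 were represented only by probe sets shared with other genes, so these 5 were not analysed here. The 33 genes were covered by 48 probe sets, and 22 of them passed the filter on low values that was applied before testing (log2 above 5 in at least 2 tumors).

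All tumors came from LSL-MYCN;Dbh-iCre mice. In these double-transgenic animals a human MYCN cDNA, followed by luciferase, lies in the ROSA26 locus behind a CAG promoter and a loxP-flanked stop cassette, and Cre under the Dbh promoter removes the stop in noradrenergic cells. Tumors 1 to 6 were labelled adrenal (n = 6) and tumors 7 and 8 superior cervical ganglion (n = 2), and none had been treated. Each tumor was profiled once on an Affymetrix whole-genome mouse array. The MYCN transgene lacks untranslated regions and is driven by a ubiquitous promoter, the ages of these mice are not given in the sources used here, and no arrays of normal tissue were analysed here. Bulk tissue was hybridised, so that fewer cells of a type and less RNA per cell cannot be told apart.

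Hox genes encode homeodomain transcription factors that give cells their position along the body axis. They lie in 4 clusters on different chromosomes, and within a cluster the paralog groups with low numbers are used in anterior structures and those with high numbers in posterior ones. Sympathetic neurons and chromaffin cells descend from the neural crest, where the set of Hox genes in use differs with axial level. The superior cervical ganglion is the most rostral ganglion of the sympathetic chain, whereas the adrenal medulla forms further caudally. Retinoic acid, CDX factors and GDF11 switch the clusters on in the embryo, Polycomb and trithorax proteins maintain the pattern, and the TALE homeodomain proteins PBX, MEIS and PKNOX bind DNA together with Hox proteins.

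The regions before the starts of 4 members are printed because the results below turn on these genes: Hoxc4 fell from a high level to below detection in 1 tumor, and Hoxd3, Hoxd8 and Hoxd9 are neighbors whose highest value fell in the same tumor. Each sequence comes from the RefSeq promoter table of assembly GRCm38.p6 and runs over the 250 bases before the listed start on the plus strand, which for Hoxc4 is 1 of several starts. Hoxc4 is at chr15:103034145-103034394, Hoxd3 at chr2:74711743-74711992, Hoxd8 at chr2:74704365-74704614 and Hoxd9 at chr2:74697513-74697762. Capitals mark AGGTCA or its reverse complement TGACCT, the core of sites bound by retinoic acid receptors and other nuclear receptors.
Hoxc4: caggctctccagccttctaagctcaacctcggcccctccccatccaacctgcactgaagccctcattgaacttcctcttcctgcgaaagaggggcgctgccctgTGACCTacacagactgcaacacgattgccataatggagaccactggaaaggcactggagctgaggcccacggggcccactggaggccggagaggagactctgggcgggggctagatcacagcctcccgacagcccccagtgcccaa
Hoxd3: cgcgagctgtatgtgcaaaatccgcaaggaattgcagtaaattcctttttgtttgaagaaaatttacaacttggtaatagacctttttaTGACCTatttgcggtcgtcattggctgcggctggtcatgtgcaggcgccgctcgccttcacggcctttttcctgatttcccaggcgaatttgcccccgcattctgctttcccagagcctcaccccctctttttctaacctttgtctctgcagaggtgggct
Hoxd8: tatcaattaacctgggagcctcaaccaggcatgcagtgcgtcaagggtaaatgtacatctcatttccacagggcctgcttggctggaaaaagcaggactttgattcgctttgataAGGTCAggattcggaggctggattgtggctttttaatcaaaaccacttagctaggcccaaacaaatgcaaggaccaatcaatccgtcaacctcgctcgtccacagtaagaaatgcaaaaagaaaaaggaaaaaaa
Hoxd9: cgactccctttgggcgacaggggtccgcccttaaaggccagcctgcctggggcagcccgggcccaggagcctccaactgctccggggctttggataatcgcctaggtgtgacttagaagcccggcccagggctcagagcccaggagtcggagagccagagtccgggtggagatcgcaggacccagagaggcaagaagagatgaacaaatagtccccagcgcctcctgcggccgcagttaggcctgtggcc

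AGGTCA was present in 3 of these 4 windows, 146 bases before the start of Hoxc4, 161 before that of Hoxd3 and 135 before that of Hoxd8. The same letters occurred in 14.0% of the 32851 promoter windows of the table. The other 4 motifs were searched on both strands as well and were in none of the 4 windows. They were CACGTG, the E-box of MYC proteins, in 6.02% of all windows, TGACAG, a MEIS site, in 15.9%, TGATTNAT, a composite PBX and Hox site, in 2.82%, and AGATAA, bound by GATA factors, in 9.99%. Base composition differed between the windows. G and C made up 62% of the Hoxc4 window and 65.2% of the Hoxd9 window, but 49.2% of the Hoxd3 window and 44.4% of the Hoxd8 window, against a median of 52.4% over the table. In all, 22 of the 38 Hox genes were in the promoter table, and Hoxc8 and Hoxc9 were not. A match is a description of letters and not a binding site.

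Values are the log2 intensities deposited for each array. They spanned 3.00 to 15.27, with an upper quartile between 8.85 and 8.93 on every array. A gene was called detected in a tumor when its probe set exceeded the 95th percentile of 86 probe sets for taste, vomeronasal and olfactory receptors on the same array, which was 6.71 to 7.21. Noradrenergic markers such as Phox2a, Th and Dbh were detected in all tumors, but the list stood apart in tumor 7. The mean deviation of the 13 measured markers of that list from their averages over the tumors fell to -2.89 in tumor 7, the others lying between 0.25 and 0.63, with 11 of 13 detected in tumor 7 and 13 elsewhere. The undetected genes were Gata3 (5.22), a transcription factor of the lineage, and Slc6a2 (6.65), the noradrenaline transporter. Liver transcripts stood apart in tumor 6, with a mean deviation of 4.80 and 13 of 14 genes detected, against at most 2 in any other tumor, and adrenal cortex transcripts deviated by 0.89 there, although the cortical regulator Nr5a1 was detected in none of the 8 tumors. Skeletal muscle transcripts deviated by 1.08 in tumor 7 and 0.60 in tumor 8, against -0.48 to -0.10 in the adrenal tumors. The RNA of tumor 1 was less intact by the measure of Gapdh, whose 3′ signal exceeded its 5′ signal by 5.51, where the other tumors had 0.47 to 1.57. Whether these features had a part in the Hox values was not tested, except where values without a tumor are given. The sources do not state whether the tumors were taken from different mice, and p-values between sites therefore measure the spread between these tumors.

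Most Hox genes were not detected. Of the 33 measured, 4 were detected in all 8 tumors, namely Hoxa5, Hoxa7, Hoxc9 and Hoxd8, whereas 54.8% of all genes were. Another 9 were detected in some tumors, which gave 13 in at least 1 tumor, against 69.2% of all genes, and 20 were detected in none. The number detected per tumor ran from 8 in tumors 1 and 2 to 12 in tumor 6, with 10 and 11 in the ganglion tumors 7 and 8. The limits themselves differed between arrays, at 7.16 and 7.21 in tumors 1 and 2 and 6.71 in tumor 6, so that Hoxb3 counted as detected at 6.80 in tumor 6 and not at 6.97 in tumor 3. The counts depended on the limit, since 19 Hox genes were above log2 5 in all tumors and 22 in at least 1, and 10 were above the 99th percentile of the receptors in at least 1.

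By paralog group, detection was confined on these probe sets to groups 2 to 9. Of the 7 measured genes of the anterior groups 1 to 3, 4 were detected in at least 1 tumor, and of the 12 of the central groups 4 to 8, 6 were. Among the 14 measured posterior genes of groups 9 to 13, 3 were detected, and all 3, Hoxa9, Hoxc9 and Hoxd9, belonged to group 9. All 10 measured genes of groups 10 to 13 stayed below the limit in every tumor. By cluster, at least 1 tumor exceeded the limit for 4 of 9 HoxA genes, 2 of 9 HoxB genes, 4 of 7 HoxC genes and 3 of 8 HoxD genes.

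**Figure D1:**
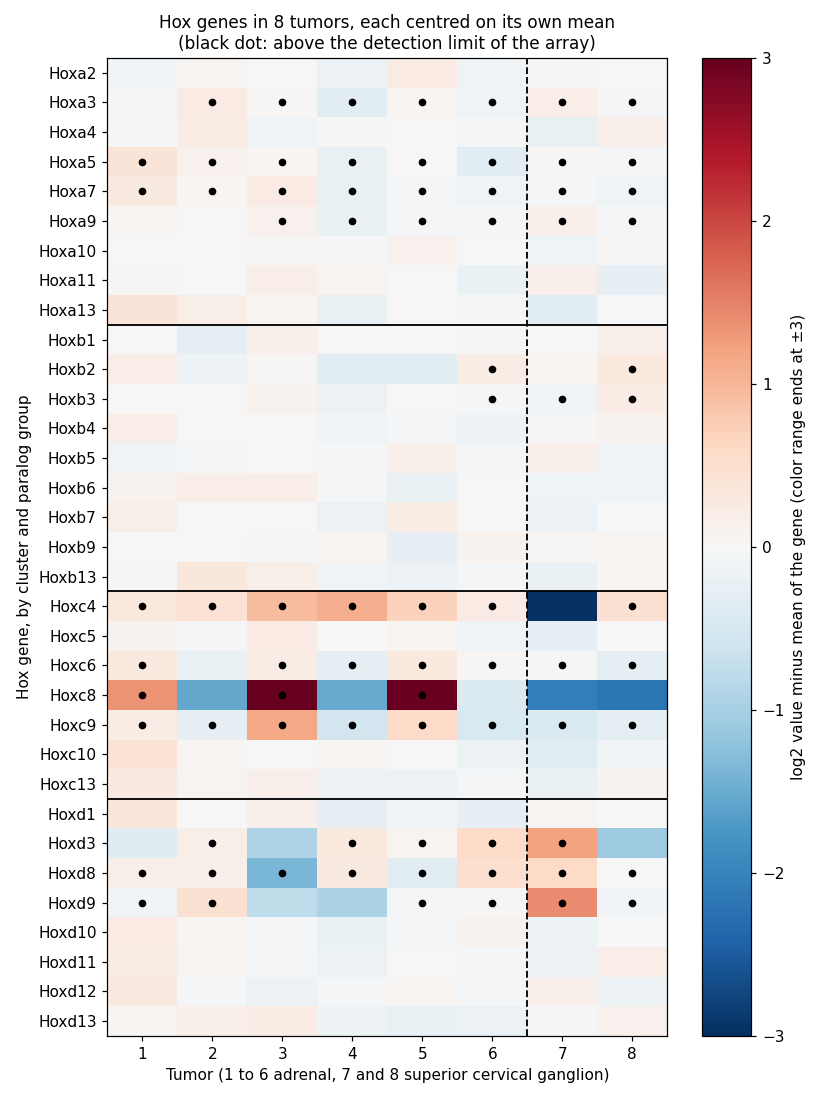
Heat map of the 33 measured Hox genes (rows, by cluster and paralog group) in the 8 tumors (columns, adrenal to the left of the dashed line, superior cervical ganglion to the right). Color is the log2 value minus the mean of the gene over the tumors, with the range ending at ±3, and a black dot marks a value above the detection limit of the array. The strongest color appears in Hoxc4 and Hoxc8, and weaker color in Hoxc9, Hoxd3, Hoxd8 and Hoxd9. HoxA and HoxB are nearly uniform, and groups 10 to 13 carry no dots.

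Variation between tumors is given next, with no test between clusters. The SD over the 8 tumors was above 0.5 in 6 Hox genes, Hoxc4, Hoxc8 and Hoxc9 of HoxC and Hoxd3, Hoxd8 and Hoxd9 of HoxD, and in no member of HoxA or HoxB. Of the 18 measured HoxA and HoxB genes, 12 were detected in no tumor and none exceeded a limit by more than 1.06, so that most of their values are at background. The count of 6 also depends on the probe set kept, since other probe sets of Hoxc5 (SD 0.68) and Hoxc6 (SD 0.53) were above 0.5 as well. This was 27.3% of the 22 Hox genes tested, next to 15.3% of all 16254 genes tested. The median SD of the 22 was 0.18 and that of all tested genes 0.26. Ranked by SD among all tested genes, Hoxc8 was at place 24 and Hoxc4 at place 90. Among the 6 adrenal tumors alone, Hoxc8 was at place 37 and Hoxc4 at place 4353, so that the spread of Hoxc8 lay within the adrenal group and that of Hoxc4 did not.

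Hoxc4, a member of a paralog group of the cervical level, was strongly expressed in every tumor but 1. Its log2 values in the adrenal tumors 1 to 6 were 10.78, 10.89, 11.41, 11.54, 11.16 and 10.71. In the ganglion tumors it was 6.28 in tumor 7, which is under the limit of 6.72 for that array, and 10.91 in tumor 8. Tumor 8 thus fell among the adrenal tumors, and tumor 7 lay 4.78 below the mean of the others. Hoxc4 has 1 single-gene probe set on the array, so that a second set could not be compared.

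Hoxc8, which acts in the thoracic skeleton and in motor neurons of the forelimb level, divided the adrenal tumors. It was 10.10 in tumor 3, 9.61 in tumor 5 and 7.99 in tumor 1, and these were the 3 tumors in which it was detected, tumor 1 being the one with less intact RNA. In the other adrenal tumors it was 5.10 (tumor 2), 5.12 (tumor 4) and 6.20 (tumor 6), and in the ganglion tumors 4.56 and 4.45. The range over the 8 tumors was 5.65. Of the 8 values, 5 were under the limit, and the order among those 5 is one of background signal.

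Hoxc9, a determinant of thoracic motor neuron identity, was detected in all tumors but followed a similar order. Its values were 8.07, 7.60, 9.01, 7.29, 8.42 and 7.37 in tumors 1 to 6, and 7.41 and 7.57 in tumors 7 and 8. Tumors 3, 5 and 1 were again the highest, and the ganglion tumors lay within the adrenal range.

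Hoxc6, a gene of brachial motor neurons, varied less. On the probe set with the highest mean it was 7.65, 7.16, 7.58, 7.06, 7.67 and 7.40 in the adrenal tumors and 7.32 and 7.07 in the ganglion tumors, which put 7 tumors above the limit. Tumors 5, 1 and 3 were the highest. Its other probe sets ran from 6.38 to 7.86 and from 6.32 to 7.44. Each was detected in tumors 3, 5 and 6 and was highest in tumor 3, followed by tumor 5. On both, tumor 1 (6.97 and 6.79) was under its limit of 7.16.

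Hoxc5 was not detected on the probe set kept for it, with values of 6.20 to 6.70. On a second probe set, which spanned 5.27 to 7.17, tumors 1, 3 and 5 were the highest and only tumor 1 exceeded its limit (7.17 against 7.16). Hoxc10, of lumbar levels, remained at 4.02 to 4.74 and Hoxc13, known from hair follicles, at 5.18 to 5.67. Transcripts of other cell types varied between the tumors in which Hoxc8 was detected. The mean deviation of the 13 fibroblast and mesenchyme genes was 1.02 in tumor 1, 0.08 in tumor 3 and -1.48 in tumor 5, which were the highest, a middle and the lowest value of the 8 tumors. That of the 6 Schwann cell genes was 0.41 in tumor 1, 0.47 in tumor 3 and -0.33 in tumor 5, and the first pair were the highest of the 8. Their part in the HoxC values was not tested.

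**Figure D2:**
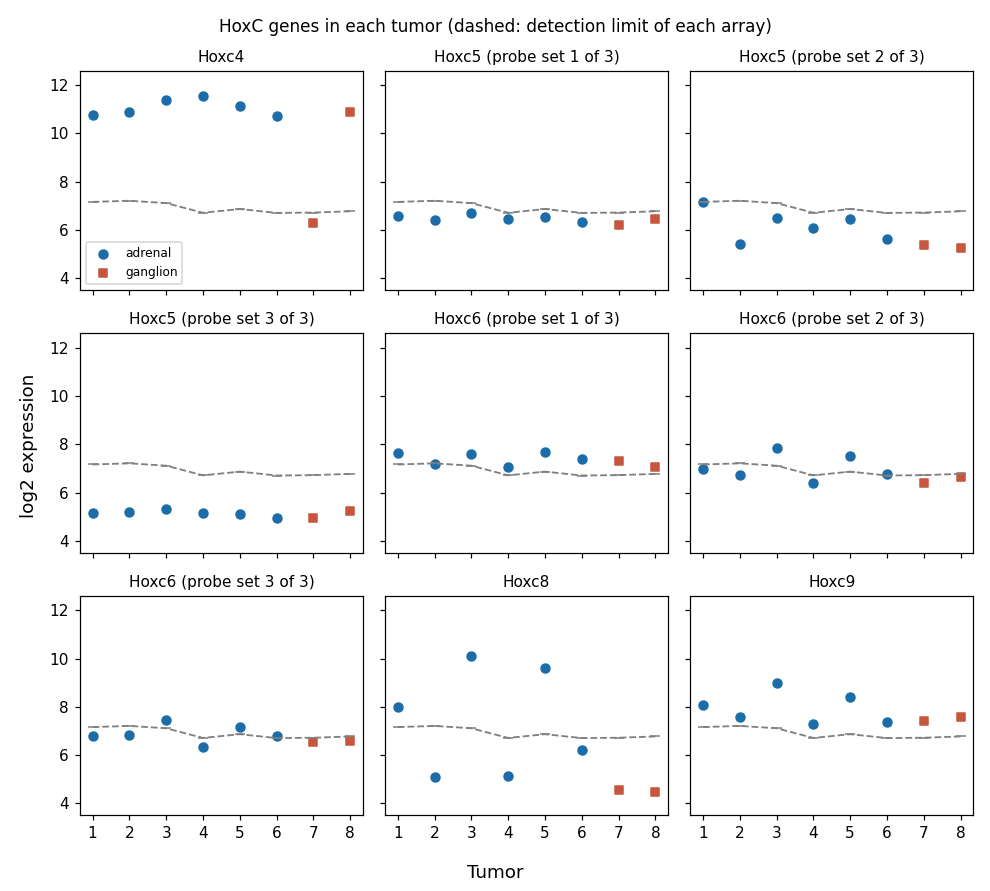
Log2 expression (y axis) of Hoxc4, Hoxc8, Hoxc9 and all 3 probe sets each of Hoxc5 and Hoxc6 in tumors 1 to 8 (x axis), with blue circles for adrenal tumors, red squares for ganglion tumors and a dashed line for the detection limit of each array. Hoxc4 is near 11 in all tumors but tumor 7 (6.28), and Hoxc8 is above the limit in tumors 1, 3 and 5 only.

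Of the genes that flank HoxC on chromosome 15, those detected in all tumors did not show these swings. The 5 nearest named genes measured on each side (Calcoco1, Atp5g2, Atf7, Npff and Tarbp2 on one, Smug1, Cbx5, Hnrnpa1, Nfe2 and Copz1 on the other) had SDs of 0.06 to 0.37. Their median deviation from the gene means was -0.19 to 0.06 in the 8 tumors, and -0.11 in tumor 7, in which Hoxc4 was low. Of these flanks, Calcoco1, Atf7 and Nfe2 were detected in no tumor and Npff in 3, so that their values are at or near background. Over 655 other genes of chromosome 15, the median deviation was -0.06 to 0.09.

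Hoxd8, another gene of the trunk, was detected in all tumors. Its values were 9.12, 9.12, 7.60, 9.22, 8.62 and 9.47 in tumors 1 to 6 and 9.56 and 8.95 in tumors 7 and 8. Tumor 7 was the highest and tumor 3 the lowest, and the second probe set of Hoxd8, with 9.38 in tumor 7 and 7.22 in tumor 3, had the same extremes. The site groups overlapped on both.

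Hoxd3, a gene of anterior levels, was detected in 5 tumors. It was 6.93, 7.48, 6.38, 7.60, 7.39 and 7.88 in the adrenal tumors, 8.50 in tumor 7 and 6.21 in tumor 8. The ganglion tumors thus held both the highest and the lowest value, and tumor 3 was the lowest adrenal tumor.

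Hoxd9, which acts in the limb and the lower trunk, was detected in 6 tumors. It was 7.52, 8.04, 6.84, 6.65, 7.56 and 7.62 in the adrenal tumors and 8.998 and 7.51 in the ganglion tumors. Tumor 7 was again the highest, tumor 4 was the lowest and tumor 3 came next. The long noncoding RNA Hoxd3os1, transcribed opposite to Hoxd3, was 6.58 in tumor 3, 7.59 in tumor 8 and 7.78 in tumor 2, and between 8.72 and 9.71 in the other tumors, which included 9.65 in tumor 7. Its SD was 1.17, and a second probe set for it remained undetected at 4.19 to 4.53.

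**Figure D3:**
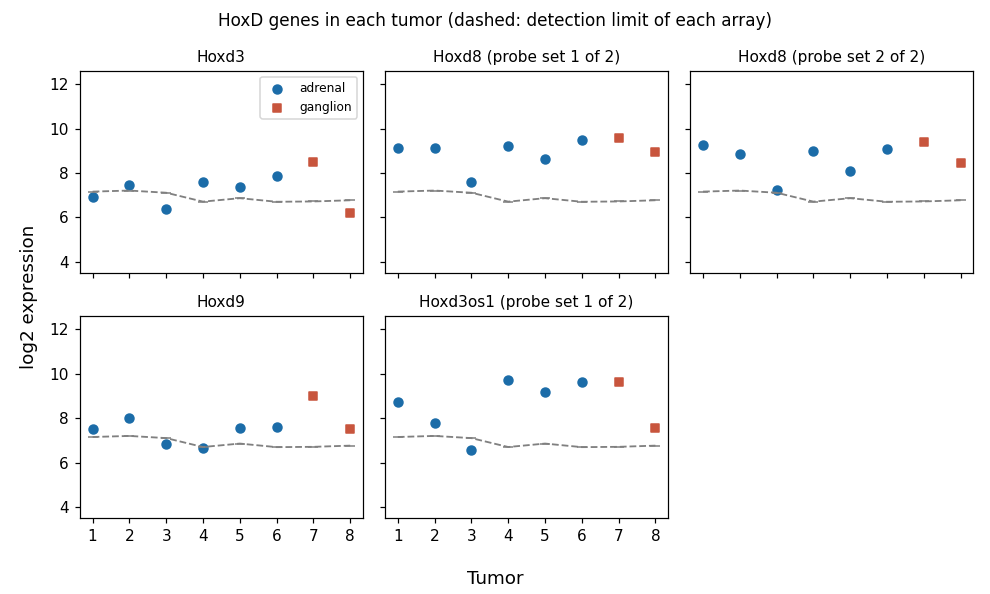
Log2 expression (y axis) of Hoxd3, both probe sets of Hoxd8, Hoxd9 and the detected probe set of the noncoding RNA Hoxd3os1 in tumors 1 to 8 (x axis), with blue circles for adrenal tumors, red squares for ganglion tumors and a dashed line for the detection limit. Tumor 7 is the highest in the 3 coding genes, and tumor 3 is the lowest for Hoxd8 (7.60 and 7.22) and Hoxd3os1 (6.58).

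The other HoxD genes were below the limit. Hoxd1 reached at most 4.17, Hoxd10 4.35, Hoxd11 4.68 and Hoxd12 4.78, and Hoxd13, which patterns digits, remained at 5.73 to 6.19. The genes next to the cluster on chromosome 2, Evx2, Lnpk, Atp5g3, Atf2 and Chn1 on one side and Mtx2, Nfe2l2, Agps, Ttc30b and Ttc30a2 on the other, had SDs of 0.07 to 0.79 with a median of 0.22. Ttc30b (SD 0.79) was 6.58 in tumor 7, under the limit (a difference of -1.93 from the mean of the other tumors), and Chn1 (SD 0.67) and Nfe2l2 (SD 0.54) also varied. The median deviation of the flanks was 0.09 in tumor 3, in which Hoxd8 was lowest, and -0.08 in tumor 7, in which the 3 detected HoxD genes were highest.

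In HoxA the detected genes were nearly level across tumors. Hoxa5, which is needed for lung and neck structures, was 8.14, 7.87, 7.80, 7.53, 7.73 and 7.44 in the adrenal tumors and 7.78 and 7.71 in the ganglion tumors. Hoxa7 was 7.92, 7.71, 7.89, 7.42, 7.62 and 7.55 in the adrenal tumors and 7.58 and 7.51 in the ganglion tumors. Both were above the limit everywhere, by at most 1.06 and 0.86, and their site groups overlapped.

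Hoxa3, a gene of pharyngeal crest and thymus development, ranged from 6.90 to 7.45 and was detected in 7 tumors. Hoxa9, of blood progenitors and the lower trunk, ranged from 6.85 to 7.19 and was detected in 6. Neither lay more than 0.69 above a limit, and Hoxa9 exceeded the 99th percentile of the receptors in no tumor. Detection in HoxA rested on 1 probe set per gene, since the second probe set of Hoxa5 (4.95 to 5.59), that of Hoxa9 (4.49 to 4.98) and the other 3 of Hoxa3 were below the limit in all tumors. Hoxa2 and Hoxa4 were at most 4.12, and Hoxa10, Hoxa11 and Hoxa13, genes of the limb and urogenital tract, at most 5.47.

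HoxB was the least detected cluster, with no member above the limit in all tumors. Hoxb2, a hindbrain gene, was above it in tumors 6 (6.85) and 8 (6.91) only and spanned 6.28 to 6.91. Hoxb3 was above it in tumors 6, 7 and 8 and spanned 6.69 to 7.08. These 2 genes exceeded a limit by at most 0.14 and 0.31, and neither exceeded the 99th percentile in any tumor.

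Hoxb4, Hoxb7 and Hoxb9 remained between 5.45 and 6.21 and were not detected in any tumor. The same held for Hoxb1 (3.84 to 4.26), Hoxb5 (4.18 to 4.45), Hoxb6 (4.32 to 4.71) and Hoxb13, a gene of prostate and tail (5.07 to 5.63). The noncoding Hoxa11os and Hoxb5os were below the limit as well. The homeobox genes Evx1 and Evx2 at the cluster ends and the ParaHox genes Gsx1, Gsx2 and Pdx1 were detected in none of the 8 tumors.

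The question the labels allow to be tested is whether Hox genes differed between adrenal and ganglion tumors. In the limma fit with Benjamini-Hochberg adjustment over all 16254 tested genes, 0 of 22 Hox genes passed the threshold of 0.05, and their adjusted p-values lay between 0.90 and 1.00. Over all genes, 0.0185% were called, which was 3 genes, Clvs2 and the muscle genes Acta1 and Tnnt3, all higher in the ganglion tumors. At an unadjusted p below 0.05, 1 Hox gene (Hoxc4) and 761 genes in all (4.68%) were found. The exact permutation test over the 28 ways to choose 2 of 8 tumors cannot give a p below 0.036.

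The lowest differences between site means, none of them past the threshold, were those of Hoxc8 and Hoxc4. Hoxc8 averaged 7.36 in adrenal and 4.50 in ganglion tumors, a log2 difference of -2.85 ± 1.37 (SE; limma, Benjamini-Hochberg adjusted p = 0.90; exact two-sided permutation p = 0.14). Since it was undetected in both ganglion tumors and in 3 of 6 adrenal tumors, the measured difference is against background signal. The adrenal mean lay 0.61 above the mean detection limit of the ganglion arrays (6.75) on the log2 scale. It includes 3 adrenal values that were under their own limits, so no bound on the site difference is drawn from it. Hoxc8 was the only tested Hox gene with both ganglion values below all adrenal values, as in 2.1% of all genes, but it had passed the filter on low values through adrenal tumors alone, and nothing is read from that order. No Hox gene had both ganglion values above, as 2.31% of all genes did. The measured difference was -3.30 to -2.30 when each tumor was left out in turn. Hoxc4 differed by -2.49 ± 0.93 (SE; limma, Benjamini-Hochberg adjusted p = 0.90; exact two-sided permutation p = 0.14), with means of 11.08 and 8.59. That difference came from tumor 7, for it was -0.17 without tumor 7 and -4.80 without tumor 8. Both of these fits held only 1 ganglion tumor, and so no spread within that site. Hoxc9 differed by -0.47 ± 0.43 (SE), close to its error, and by -0.26 without tumor 3, and its groups overlapped.

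In HoxD, Hoxd9 was 0.88 ± 0.45 (SE) higher in the ganglion tumors, with means of 8.25 and 7.37 and an exact two-sided permutation p of 0.21. This value also depended on tumor 7, without which it was 0.14, and was 1.63 without tumor 8. Hoxd8 differed by 0.40 ± 0.45 (SE), and by 0.09 without tumor 7, 0.15 without tumor 3 and 0.70 without tumor 8. Hoxd3 differed by 0.08 ± 0.57 (SE), which turned to -1.06 without tumor 7 and to -0.10 without tumor 3 and was 1.22 without tumor 8. Of the 22 tested Hox genes, 17 differed by less than 0.3 in either direction, 12 had the lower mean in the ganglion tumors and 10 the higher, and the median difference of -0.03 equalled that of all genes to 2 decimals. Noradrenergic markers were lower in tumor 7 and muscle transcripts higher in both ganglion tumors, and their part in these differences was not tested.

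**Figure D4:**
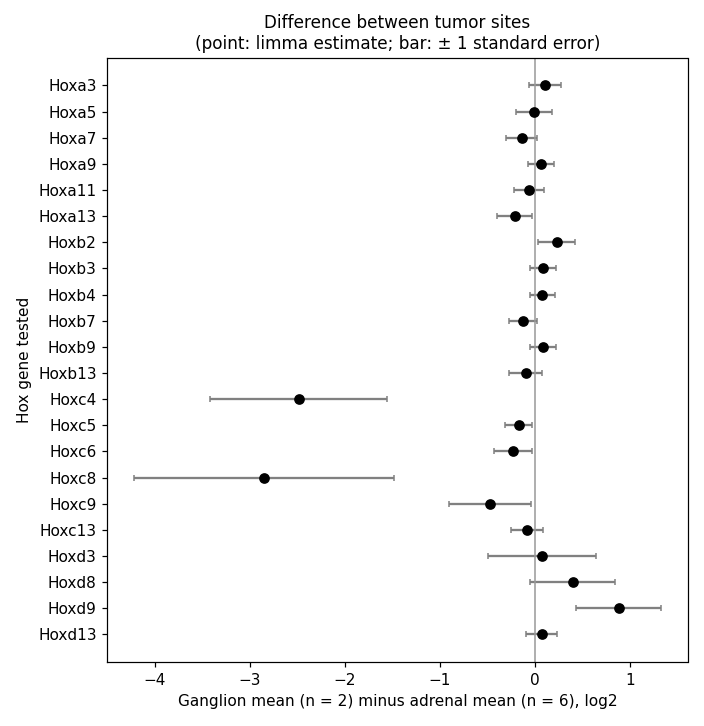
Log2 difference between site means (x axis, ganglion n = 2 minus adrenal n = 6) for the 22 tested Hox genes (y axis), with points for limma estimates and bars for ± 1 standard error. Hoxc8 (-2.85, undetected in both ganglion tumors) and Hoxc4 (-2.49) are the lowest and have the widest bars, Hoxd9 (0.88) is the highest, and most others lie within 0.3 of the zero line.

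Among the TALE cofactors, 8 of 9 were measured, 5 were detected in all tumors and 0 were called between the sites (0 at an unadjusted p below 0.05 in limma). Meis1 was 11.08, 11.23, 11.96, 12.06, 11.49 and 11.88 in the adrenal tumors, 9.32 in tumor 7 and 11.73 in tumor 8. Pbx3 was 9.28, 9.47, 8.93, 8.69, 8.55 and 9.25 in the adrenal tumors, 11.98 in tumor 7 and 7.87 in tumor 8. Tumor 7, in which Hoxc4 was not detected, thus had the lowest Meis1 and the highest Pbx3, whereas tumor 8 was within the adrenal range for Meis1 and below it for Pbx3. Meis2 was detected in tumors 5 (7.71) and 7 (7.32) only, Pknox1 ranged from 9.50 in tumor 7 to 10.67 in tumor 4, and Pbx4 was not detected.

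**Figure D5:**
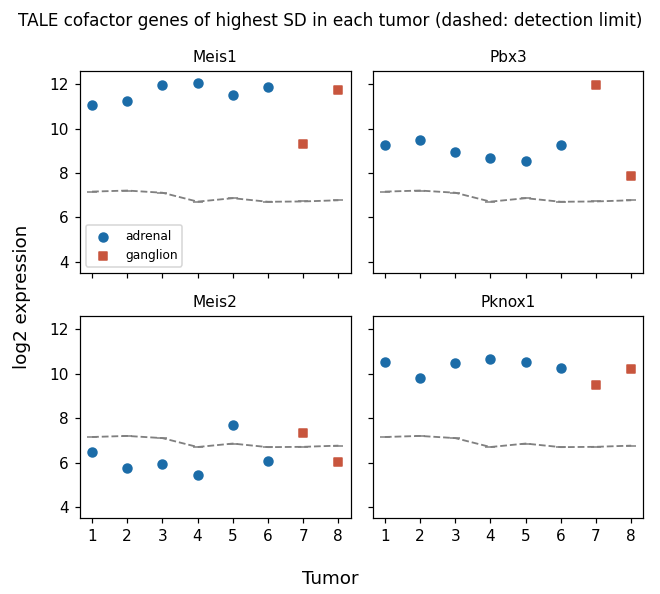
Log2 expression (y axis) of the 4 TALE cofactor genes with the highest SD, Meis1, Pbx3, Meis2 and Pknox1, in tumors 1 to 8 (x axis), with blue circles for adrenal tumors, red squares for ganglion tumors and a dashed line for the detection limit. Tumor 7 is the lowest for Meis1 (9.32) and Pknox1 (9.50) and the highest for Pbx3 (11.98).

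Of the listed regulators of Hox clusters in the embryo and enzymes that make or degrade retinoic acid, 12 of 15 were measured. The nuclear receptors Nr6a1 and Rarg were the 2 detected in all tumors. The caudal genes Cdx1, Cdx2 and Cdx4, the retinoic acid synthesizing enzyme Aldh1a2 and the degrading enzyme Cyp26a1 were detected in none. Rarb, a retinoic acid receptor, was highest in tumors 2 (7.26) and 7 (7.16), and Egr2, a hindbrain regulator, in tumors 8 (7.14) and 2 (7.05). Among the 10 tested, 0 were called and 0 had an unadjusted p below 0.05 in limma.

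The Polycomb and trithorax genes were expressed throughout, with 16 of 19 measured genes detected in all tumors. Ezh2, the catalytic subunit that methylates histone H3, reached 12.08 in tumor 1, lay between 11.29 and 11.60 in the remaining adrenal tumors and was 10.996 and 11.20 in the ganglion tumors. None of the 19 was called between the sites by limma, next to 0.0185% of all 16254 genes tested. Ezh2 was the 1 gene with an unadjusted p below 0.05 in limma. Of all genes tested, 4.68% had such a p, so nothing is read from this count. The list also held Zbtb16, a zinc finger repressor known to act on HoxD in the limb but not itself a Polycomb or trithorax protein. Zbtb16 had the highest SD of the list (0.85), with 8.47 in tumor 7 and 6.00 to 7.58 in the others. Kdm6a, an H3K27 demethylase on the X chromosome, followed with 0.51 and was lowest in tumor 7 (8.96), and Ezh1 and Suz12 had 0.40 each.

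The genes whose values over the 8 tumors were most like those of Hoxc8, the Hox gene with the highest SD, were Fam163a (Pearson r = 0.99), Baiap3 (0.95), Efs (0.95), Mpp7 (0.94) and Sry (0.92). They were the first 5 of 16232 genes that are not Hox genes, and the 8 points share their arrays and tissue make-up. Fam163a, a gene known from neuroblastoma, was 10.89, 10.31, 11.22, 10.11, 11.14 and 10.30 in the adrenal tumors and 10.13 and 9.99 in the ganglion tumors. That it is high in the tumors in which Hoxc8 is high was fixed by this choice. Sry varied only between 6.82 and 7.15, near the detection limit.

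Some genes flanking HoxA stood apart in tumor 7, in both directions. Next to HoxA on chromosome 6, which also carries the ROSA26 locus with the transgene, Skap2 was highest in tumor 7 (10.17). Nfe2l3 (6.78), Creb5 (9.31) and Jazf1 (8.98) were lowest there. Hibadh was also lowest in tumor 7 (10.75) but did not stand apart, with 10.80 in tumor 3. In tumor 7, Snx10, Cbx3, Hnrnpa2b1, Evx1 and Tax1bp1 differed by less than 0.2 from the mean of the other tumors. The median deviation of the 10 flanks in tumor 7 was -0.15, and that of chromosome 6 was -0.14. The 10 HoxA flanks had a median SD of 0.38 and the 10 HoxB flanks, such as Ube2z, Snf8, Cbx1 and Nfe2l1, one of 0.26. The median deviation over the other genes of chromosome 6 was -0.14 to 0.14 and over those of chromosome 11, which carries HoxB, -0.11 to 0.11.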

How the data were processed

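RNA of 8 tumors was hybridised to 1 array each. The authors deposited log2 expression values per probe set. RMA and Partek 6.6 are named in the submitters' processing notes, gcRMA in the Methods, and it is unsettled here which produced these values. Background correction and normalization were thus part of the values, and no further normalization was applied.

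Of 45101 probe sets, 34958 carried 1 gene in the platform annotation (34754 matched the RefSeq gene table), 932 several and 9211 none. As in the Methods, the probe set with the highest mean represented a gene, and log2 5 was the limit for expression, required here in at least 2 tumors (16254 genes). The site comparison used limma 3.58.1 under R 4.3.3 (lmFit, eBayes, Benjamini-Hochberg adjustment, threshold 0.05). On simulated data with 6 and 2 tumors, this step called 41 of 100 differences of log2 1 and 91 of 100 of log2 2, with 6 false calls. Many site differences of log2 1 would thus be missed. Exact permutations, Dixon ratios and motif searches were run in Python 3.11.15 with numpy 2.4.6 and pandas 2.3.3, and plots drawn with matplotlib 3.10.9. No 2 arrays held identical values, and the number of arrays limits the precision.

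All members are named. Of other lists, genes called between the sites, up to 4 with the highest SD and genes detected nowhere could be named, as could the 5 nearest genes on each side of a cluster and the 5 genes most like the Hox gene with the highest SD. Names outside this rule (Phox2a, Th, Dbh, Nr6a1, Rarg and Ezh2) were chosen after their values were seen. Members and lists were chosen with earlier results of these data known. Alternatives covered the normalization, filter, probe set per gene, test, detection limit and tumors left out.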

Additional observations from a re-analysis of the deposited data

Results flagged for a closer look

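Dixon's ratio (the gap of the extreme tumor to its nearest neighbor over the whole range) was computed in 46 tests, for the 13 detected Hox genes and 10 marker lists, each over all tumors and over the 6 adrenal tumors. Chance exceeds the 95% critical value in about 1 of 20 independent tests. Here 6 exceeded it, but these tests are not independent. The liver and adrenal cortex lists each count in both groups of tumors for the same gap, so no excess over chance is read from the 6. Hoxc4 over all tumors had a ratio of 0.842, because tumor 7 was at 6.28 and its nearest neighbor at 10.71. The noradrenergic list over all tumors had a ratio of 0.892, because tumor 7 deviated by -2.89 and the nearest tumor by 0.25. The liver list had a ratio of 0.941 over all tumors and over the adrenal tumors, with tumor 6 at 4.80 and the next at -0.52. The adrenal cortex list had a ratio of 0.827 in both groups of tumors, with tumor 6 at 0.89 and the next at -0.03. Hoxc8 did not exceed the critical value in either group.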

How the results depend on the processing

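The count of 0 called Hox genes was unchanged under quantile normalization, no filter, a filter at the receptor-based limit, the mean of probe sets, array weights, a robust trended fit and without tumors 6 and 7, and lay between 0 and 1 with each tumor left out (1, Hoxc4, without tumor 8). The 3 genes called in all became 1 with the receptor-based filter, 6 with the mean of probe sets, 9 without tumors 6 and 7, and 2 to 951 with a tumor left out (8 without tumor 7, 951 without tumor 8). Where 1 ganglion tumor remained, it was assumed to vary like the adrenal ones. Detection in all tumors was 4, or 19 above log2 5, and in at least 1 tumor 13, or 22 above log2 5; the 99th percentile gave 4 and 10 and the mean of probe sets 3 and 9; with a tumor left out these were 4 to 5 and 13. The sign of the site difference held for 13 of 22 Hox genes, for 8 under 15 alternatives and for 5 under 14, since these 5 were not tested with the receptor-based filter. It turned in 9. Without tumors 6 and 7, Hoxa3 was -0.0275, Hoxa9 -0.0412, Hoxb13 0.0320, Hoxc13 0.0669 and Hoxd3 -0.94. With array weights, Hoxa5 was 0.10 and Hoxd3 -0.0107. With a tumor left out, Hoxa3 was -0.0081 to 0.22, Hoxa5 -0.0706 to 0.0703, Hoxa9 -0.0316 to 0.16, Hoxa11 -0.10 to 0.14, Hoxb3 -0.0681 to 0.24, Hoxb13 -0.23 to 0.0444, Hoxc13 -0.24 to 0.0784, Hoxd3 -1.06 to 1.22 and Hoxd13 -0.0118 to 0.16. The cause was not tested. Hoxa11 did not pass the filter on low values without tumor 3 or without tumor 7, so its range covers the other tumors only. No paired analysis was possible because the sources do not state which tumors, if any, came from the same mouse. Signal over background limits the Hox genes near the detection limit, of which Hoxa9, Hoxb2 and Hoxb3 were not above the 99th percentile in any tumor.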
